A study of Mus musculus with 2 samples.

Results

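The 10 inflammasome genes described here were chosen by symbol from the 46095 entries of the count table. They encode 4 sensors (Nlrp3, Nlrc4, Nlrp1b and Aim2), the adaptor (Pycard), 2 caspases (Casp1 and Casp4), 2 cytokines (Il1b and Il18) and the pore former (Gsdmd). All 10 were in the table, and 8 averaged 5 CPM (TMM-scaled counts relative to library size) or more across the pair of libraries. Il18 and Nlrp1b were below that level.

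Inflammasomes are protein platforms that assemble in the cytosol of myeloid cells when a sensor meets a microbial product or a sign of cell damage. The sensor recruits the adaptor ASC and the protease caspase-1, which matures the cytokines IL-1β and IL-18 and cleaves gasdermin D, whose freed part opens pores in the plasma membrane. In macrophages, extracellular ATP acting on P2X7 is a well-known trigger of the NLRP3 sensor, and transcription of Nlrp3 and Il1b is raised beforehand by NF-kB signalling.

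The RNA came from mouse acute myeloid leukaemia cells, labelled leukaemia-initiating, that had been sorted from bone marrow for the surface markers Mac1 and KIT. All samples are labelled C57BL/6 with an age of 8 weeks, and the groups differ in genotype, wild type (WT) in one and knockout of P2x1 (P2X1-KO) in the other. The treatment text also writes P2X1-Scr for the first and P2X1-KD for the second group, so it is not settled whether the gene was deleted or knocked down. Which oncogene drives the leukaemia, and whether mice were pooled, is not stated in the labels. Each group had 1 library, so none of the differences was checked by replicates and no test was made. The intervals cover counting error only.

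The WT library held 14658620 counts over 19824 genes with at least 1 count, and the P2X1-KO library 9447894 over 16165. P2rx1, the targeted gene, had 27 counts (1.73 CPM) in the first and 45 counts (5.07 CPM) in the second, which goes against the label. Libraries are therefore called WT-labelled and P2X1-KO-labelled, and every direction is between libraries so labelled. The genes of the sort were present in both: Kit had 13.3 and 19.9 CPM, and Itgam, which encodes a subunit of Mac1, had 307 and 504 CPM. Markers of mature myeloid cells differed widely. Summed over 15 monocyte and macrophage markers, levels were 372 CPM in the WT-labelled and 5342 CPM in the P2X1-KO-labelled library, and all 11 that averaged no less than 1 CPM were higher in the latter by 2-fold or more. Lyz2 had 170 and 4207 CPM, Cd68 101 and 400 CPM, and Csf1r 40.7 and 395 CPM, while Mrc1 and Cd163 had 0 counts in the P2X1-KO-labelled library. Summed over 11 neutrophil markers, levels were 3491 and 14128 CPM, with Ngp at 1730 and 3721 CPM, S100a8 at 345 and 3475 CPM and S100a9 at 570 and 2774 CPM. Of these 11, 10 were higher by 2-fold or more, and Ly6g, named after its values were seen, was 1.72-fold lower (1.17 to 2.59) with 6.99 and 4.05 CPM. Most of the 10 genes are known to be expressed in monocytes or neutrophils. The part of these markers in the differences below was not tested, and in RNA from a sorted population more cells of a type cannot be told apart from more RNA per cell.

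NF-kB is known for inducing genes during priming, and PU.1, C/EBP and IRF factors for regulating genes of myeloid cells. RefSeq promoters (GRCm38.p6) were found for 9 of the 10 genes, with 12 annotated starts. Gsdmd had no entry. The 3 stretches below show the promoter side of the gene with the highest ratio among those with counts in both libraries (Nlrp3), of the cytokine gene known as its partner in priming (Il1b), and of the 1 gene that was lower in the P2X1-KO-labelled library (Aim2). Each runs from base 250 to base 51 before the start, 5′ to 3′ on the gene's strand, and capitals mark a motif match. The Nlrp3 stretch is chr11:59541319-59541518 on the plus strand, the Il1b stretch chr2:129371190-129371389 on the minus strand and the Aim2 stretch chr1:173420354-173420553 on the plus strand.
Nlrp3: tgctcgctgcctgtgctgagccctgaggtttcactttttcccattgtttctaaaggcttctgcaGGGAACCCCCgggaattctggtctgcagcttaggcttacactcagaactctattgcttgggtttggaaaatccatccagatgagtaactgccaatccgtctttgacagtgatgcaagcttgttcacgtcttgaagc
Il1b: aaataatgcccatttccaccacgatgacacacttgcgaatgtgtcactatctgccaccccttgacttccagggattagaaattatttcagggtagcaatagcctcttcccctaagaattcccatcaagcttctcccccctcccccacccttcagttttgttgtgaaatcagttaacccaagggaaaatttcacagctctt
Aim2: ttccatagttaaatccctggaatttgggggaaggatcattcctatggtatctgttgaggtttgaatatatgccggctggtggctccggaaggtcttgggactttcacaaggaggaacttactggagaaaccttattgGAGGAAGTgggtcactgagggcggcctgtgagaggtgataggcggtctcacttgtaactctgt
The capitals of Nlrp3 are a match to the 10-base NF-kB consensus, and those of Aim2 a match to the PU.1 motif GAGGAAGT. No match was found in the Il1b stretch. Nlrp3 has another annotated start, with no NF-kB match in the bases before it. The Aim2 start used here lies inside the annotated span of the gene, which begins at 173350879. Its stretch is therefore not the sequence before the outermost annotated start of Aim2.

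Over the 250 bases before each start, searched on both strands, the NF-kB consensus was found for 2 of the 9 genes (Nlrp3 and Casp4). It occurs before 7.25% of all 32817 starts in the table. In Casp4, 2 of the matches overlap each other. The PU.1 motif GAGGAAGT was found for 3 genes (Nlrp1b, Aim2 and Pycard) and before 2.44% of all starts. The C/EBP motif TTGCNNAA was found for 3 genes (Nlrc4, Nlrp1b and Pycard) and before 9.57% of all starts. A 10-base IRF consensus was found for 0 of the 9 genes and before 2.97% of all starts. These counts are per gene, whereas the shares are per start. Counted per start, the NF-kB, PU.1 and C/EBP motifs were each found before 3 of the 12 starts and the IRF consensus before 0. Both Casp4 starts hold the same NF-kB matches. The genes holding the PU.1 letters lay both among the lower and among the higher ones, as given next.

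Most of the inflammasome genes stood higher in the P2X1-KO-labelled library, led by Nlrp3, Il1b and Gsdmd, whereas the sensor gene Aim2 stood lower. Il18 also stood higher, but with only 0 and 10 counts. Of the 10 genes, 5 were at least 2-fold higher (Nlrp3, Il1b, Il18, Gsdmd and Pycard), 1 was at least 2-fold lower (Aim2), and 4 lay within 2-fold (Casp1, Casp4, Nlrp1b and Nlrc4). Of the 8 averaging no less than 5 CPM, 4 were at least 2-fold higher and 1 lower. Among all 10483 genes at that level, 12.1% were higher and 10.6% lower by that factor, so 53.4% of those beyond 2-fold were higher. With total counts that share was 38.7%, and with both libraries set to equal Itgam counts 11.4%. The whole 95% interval lay above 2-fold for 4 of the 10 genes, 3 of them averaging no less than 5 CPM, against 9.37% of all genes. It lay below for 0 of them, against 6.21%. The median log2 difference of the 10 genes was 0.90, and that of all genes averaging no less than 5 CPM was -0.08, on the log2(CPM + 0.5) scale. The plot of CPM in both libraries shows each gene with its counting interval.

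**Figure D1:**
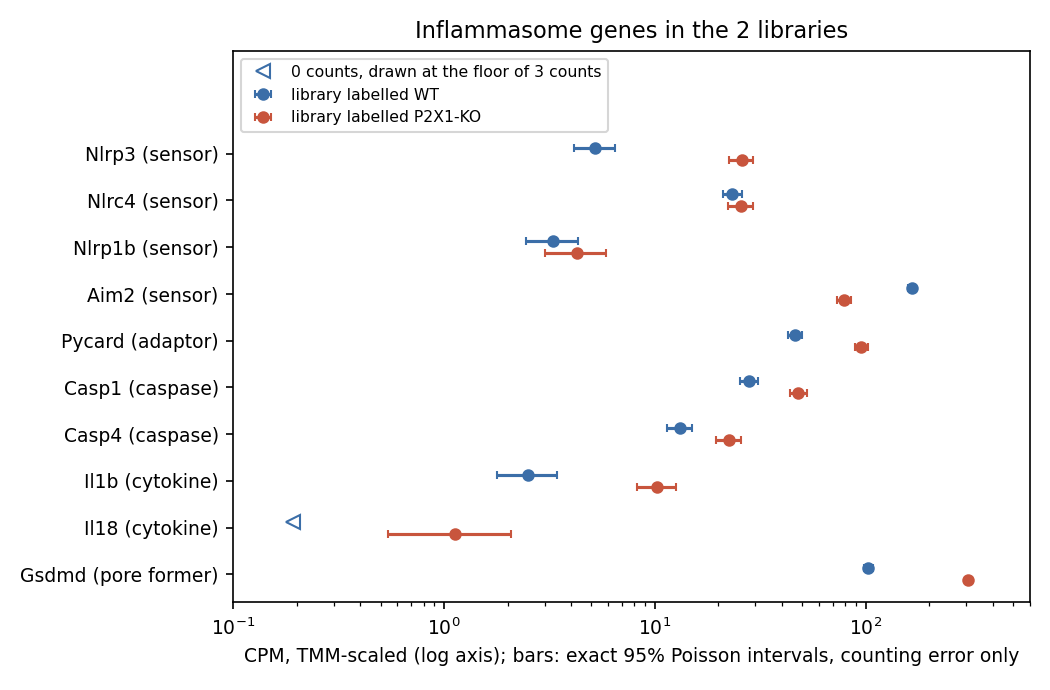
Level of each of the 10 genes in CPM on a log axis, with 1 point for each library and exact 95% Poisson intervals (those of Aim2 and Gsdmd are narrower than the points or nearly so). The points of the P2X1-KO-labelled library lie to the right for every gene except Aim2, and the intervals of Nlrc4 and Nlrp1b overlap between libraries.

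Among the sensors, Nlrp3 and Aim2 differed in opposite directions. Nlrp3, on chromosome 11 from 59541568 to 59566956 (mm10), encodes the sensor that responds to potassium efflux. It had 81 counts in the WT-labelled and 229 in the P2X1-KO-labelled library, or 5.20 CPM (95% interval 4.13 to 6.46) and 25.8 CPM (22.5 to 29.3). This made it 4.96-fold higher in the P2X1-KO-labelled library, with an interval of 3.84 to 6.48, and its log2 difference exceeded that of 96.5% of genes averaging no less than 5 CPM. Aim2, which encodes a sensor of double-stranded DNA in the cytosol, lies on chromosome 1 from 173350879 to 173466040. It had 2579 and 699 counts, or 165 CPM (159 to 172) and 78.7 CPM (73.0 to 84.7). It was thus 2.10-fold lower in the P2X1-KO-labelled library (1.93 to 2.29), and 8.73% of genes averaging no less than 5 CPM had a lower log2 difference. The direction was the same under each scaling tried, but Aim2 lay within 2-fold with upper-quartile scaling and after a correction for length and GC content.

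For the other two sensors the intervals held a ratio of 1 with TMM scaling. Nlrc4, on chromosome 17 from 74425438 to 74459142, encodes the platform that NAIP proteins switch on when they bind bacterial flagellin or secretion-system proteins. It had 364 counts in the WT-labelled and 227 in the P2X1-KO-labelled library, or 23.3 and 25.6 CPM. The ratio was 1.09 with an interval of 0.923 to 1.30. It depended on the setting, at 0.968 with total counts, 1.22 (1.03 to 1.45) after the length and GC correction and 0.665 (0.561 to 0.787) with equal Itgam counts, and the last pair of intervals excluded 1 on opposite sides. Nlrp1b, on chromosome 11 from 71153102 to 71230733, encodes a sensor activated when its N-terminal part is cleaved. It had 51 and 38 counts, or 3.27 and 4.28 CPM, a ratio of 1.31 with a wide interval of 0.836 to 2.03. It lies 1.77 Mb from P2rx1 on the same chromosome, whereas Nlrp3 lies 13.4 Mb from it. Of the 50-base windows of Nlrp1b transcripts, 1.45% also occur in Nlrp1a or the pseudogene Nlrp1c-ps.

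The mix of these 4 sensor transcripts therefore differed between the libraries. Mefv, a sensor gene outside the set with 1560 and 520 counts, is not part of the shares. Aim2 took 83.9% of the 3075 counts of the 4 sensor genes in the WT-labelled library (exact 95% interval 82.5 to 85.2) and 58.6% of 1193 in the P2X1-KO-labelled library (55.7 to 61.4). Nlrp3 took 2.63% (2.10 to 3.26) and 19.2% (16.997 to 21.5). Nlrc4 took 11.8% (10.7 to 13.03) and 19.0% (16.8 to 21.4), while its CPM was nearly level. Aim2 remained the most abundant of the 4 in both libraries, also per kilobase of exon, where it made up 87.7% and 64.5% of the summed level. These shares do not depend on how the libraries were scaled.

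Transcripts of the adaptor and of both caspases were moderately higher in the P2X1-KO-labelled library. Pycard, on chromosome 7 from 127989708 to 127993867, encodes ASC, which links the sensors to caspase-1. It had 721 and 847 counts, or 46.2 CPM (42.9 to 49.7) and 95.4 CPM (89.0 to 102), a 2.06-fold difference (1.86 to 2.28). Its interval spans 2-fold, and with total counts the value was 1.82-fold. A gene model on the opposite strand, Gm45205, covers 12.8% of the Pycard exons, and its reads could be counted with Pycard if strand was not used.

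The caspase genes lie next to each other on chromosome 9, Casp1 from 5298517 to 5307265 and Casp4 from 5308828 to 5336783, and their ratios were almost equal with TMM scaling. After the length and GC correction they were further apart, at 1.42-fold (1.24 to 1.63) for Casp1 and 1.87-fold (1.53 to 2.28) for Casp4. Casp1, which encodes the protease of the canonical pathway, had 437 and 426 counts, or 28.0 CPM (25.5 to 30.8) and 48.0 CPM (43.5 to 52.7), a 1.71-fold difference (1.49 to 1.96). Casp4, which encodes the protease also called caspase-11 that binds cytosolic lipopolysaccharide, had 205 and 199 counts, or 13.1 CPM (11.4 to 15.1) and 22.4 CPM (19.4 to 25.7). It was 1.70-fold higher in the P2X1-KO-labelled library (1.39 to 2.08). Casp1 counts were 2.13 times those of Casp4 in the WT-labelled library and 2.14 times in the P2X1-KO-labelled one. The quotient of these ratios was 1.004 with an interval of 0.787 to 1.28. Neither caspase gene shares a 50-base window with another gene.

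Both cytokine genes were higher in the P2X1-KO-labelled library, by a larger factor than the caspase genes. Il1b, on chromosome 2 from 129364570 to 129371139, had 39 counts in the WT-labelled and 91 in the P2X1-KO-labelled library, or 2.50 CPM (1.78 to 3.42) and 10.2 CPM (8.25 to 12.6). It was 4.10-fold higher in the latter, with an interval of 2.79 to 6.12. Its exons overlap those of the antisense gene Il1bos by 25 bases. Il18, on chromosome 9 from 50554827 to 50581840, was barely detected. It had 0 counts in the WT-labelled library, and 10 counts or 1.13 CPM in the other. For the WT-labelled library the floor of 3 counts is 0.192 CPM, and the exact 95% upper limit is 0.237 CPM. Against that floor the ratio was 5.85, and the lower bound of the exact interval was 3.93-fold.

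Gsdmd was the most abundant of the 10 transcripts in the P2X1-KO-labelled library. It lies on chromosome 15 from 75862327 to 75867408 and encodes the substrate that caspase-1 and caspase-11 cleave to form membrane pores. It had 1606 and 2728 counts, or 103 CPM (98.0 to 108) and 307 CPM (296 to 319), a 2.98-fold difference (2.80 to 3.17). With these counts its interval is the narrowest of those at least 2-fold higher. The log2 difference of 1.57 exceeded that of 93.8% of genes averaging no less than 5 CPM.

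**Figure D2:**
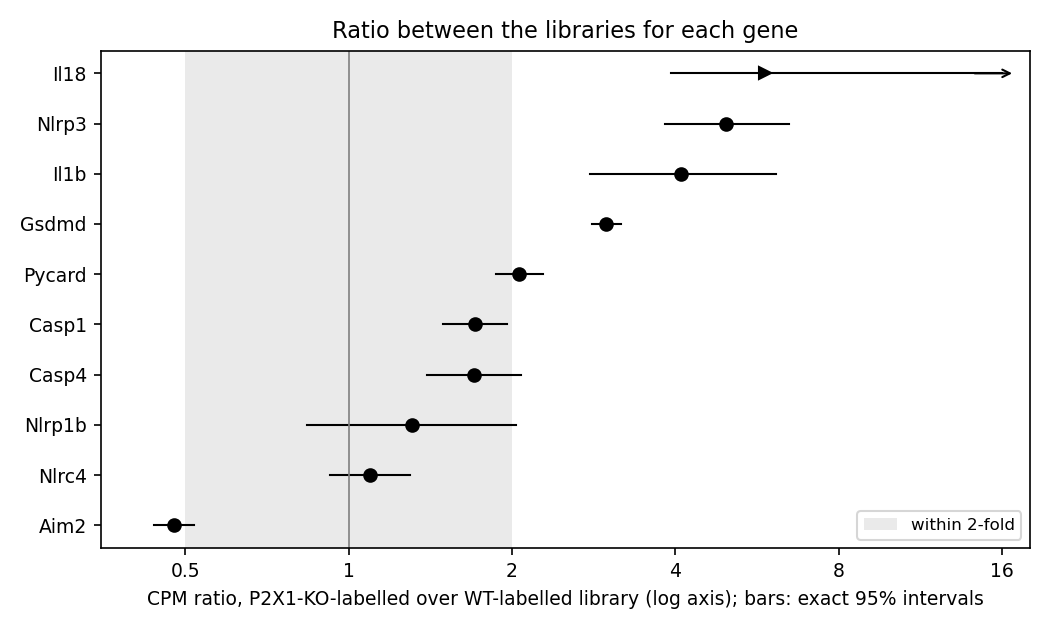
Ratio of CPM between the libraries for each gene on a log axis, with exact 95% intervals and the range within 2-fold in grey. The triangle of Il18 is the ratio against a floor of 3 counts, and its interval has no upper end. Nlrp3, Il1b, Gsdmd and Il18 have their whole interval above 2-fold, and Aim2 alone has its interval below 1.

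Set per kilobase of merged exons, the order of the genes changed at the top. In the WT-labelled library Aim2 (47.2 CPM per kb) and Gsdmd (43.3) stood first with overlapping intervals, followed by Casp1 (18.7), Pycard (12.2), Nlrc4 (4.86) and Casp4 (3.54). Il1b (1.31) and Nlrp3 (1.28) followed with overlapping intervals, then Nlrp1b (0.519) and Il18 (0 counts). In the P2X1-KO-labelled library Gsdmd stood alone at 129 CPM per kb, ahead of Casp1 at 32.0. Pycard (25.1) and Aim2 (22.5) came next and overlapped. Nlrp3 (6.35), Casp4 (6.04), Il1b (5.37) and Nlrc4 (5.32) formed a group in which neighbours could not be separated by counting error, and Il18 (1.09) and Nlrp1b (0.679) came last and overlapped. Per kilobase of merged exons, Nlrp3 thus moved from place 8 to place 5 and Aim2 from place 1 to place 4. These places depend on the length used. Per kilobase of coding length Nlrp3 moved from place 8 to place 7 and Aim2 from place 1 to place 3. In the WT-labelled library Aim2 then stood at 156 and Gsdmd at 70.5 CPM per kb. The place of Pycard also depends on the length, since its annotated exons span 3800 bases and its coding part 579. Per kilobase of coding length it was second in both libraries, at 79.9 and 165 CPM per kb.

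Ratios between 2 genes of the same library do not depend on library scaling. On this measure Aim2 and Nlrp3 stood at opposite ends. Leaving out Il18, the 9 other genes form 36 pairs, and in 29 of them the interval of the between-library quotient of count ratios excluded 1. It lay beyond 2-fold in 12. Relative to each of the 8 others, Aim2 was lower in the P2X1-KO-labelled library in 8 of 8 pairs. Nlrp3 was higher in 7 of 8, the exception being Il1b. The widest quotient was that of Nlrp3 over Aim2, which went from 0.031 to 0.328, a 10.4-fold difference (7.94 to 13.8). Il1b over Aim2 differed 8.61-fold (5.79 to 12.98) and Gsdmd over Aim2 6.27-fold (5.64 to 6.96).

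At the upper end were Nlrp3, Il1b and Gsdmd. Nlrp3 over Il1b was 2.08 in the WT-labelled and 2.52 in the P2X1-KO-labelled library, a quotient of 1.21 (0.747 to 1.95), and Il1b over Gsdmd gave 1.37 (0.929 to 2.06). Nlrp3 over Gsdmd gave 1.66 (1.28 to 2.19), an interval that excluded 1. In the middle were Pycard, Casp1 and Casp4. Pycard over Casp1 gave 1.20 (1.02 to 1.43) and Pycard over Casp4 1.21 (0.966 to 1.52). Compared with these, Nlrc4 was lower. Its ratio to Casp1 went from 0.833 to 0.533, a quotient of 0.640 (0.514 to 0.796), and its ratio to Pycard gave 0.531 (0.435 to 0.647).

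**Figure D3:**
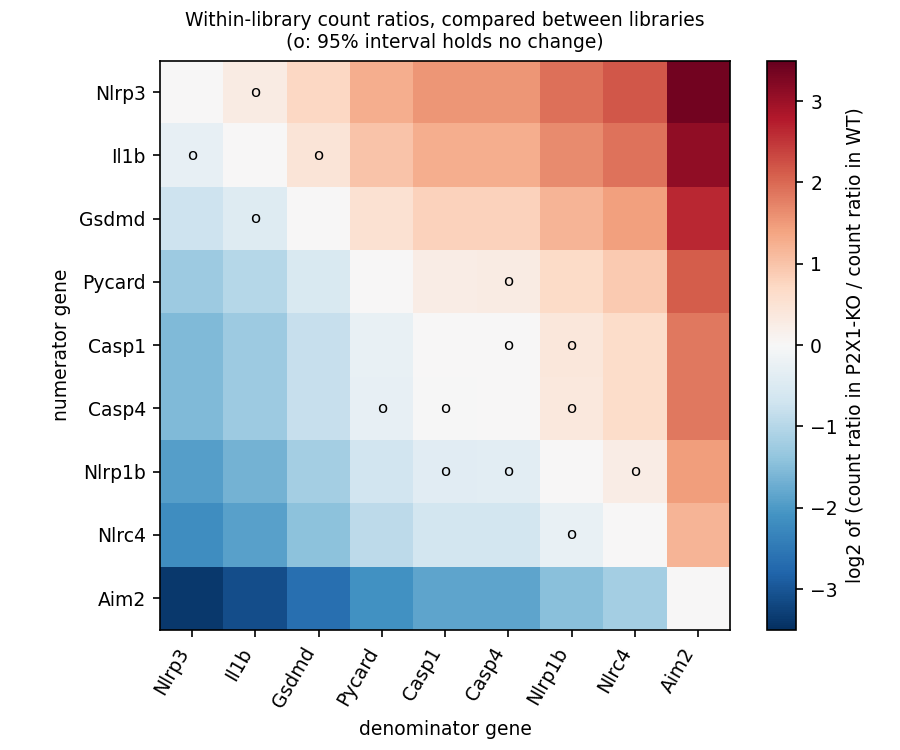
For each pair of the 9 genes with counts in both libraries, the log2 of the count ratio (row gene over column gene) in the P2X1-KO-labelled library divided by that in the WT-labelled library. A circle marks the 7 of 36 pairs whose 95% interval holds no change, and the Aim2 column is red throughout, with its largest quotient, 10.4, against Nlrp3.

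Genes around the inflammasome did not share 1 direction. In the lists below, members averaging no less than 1 CPM were counted, and of all 13382 genes at that level 15.5% stood higher and 14% lower by 2-fold or more, and their median log2 difference was -0.06. The whole interval lay above 2-fold for 10.2% and below it for 7.75% of them, against 3 and 0 of the 9 inflammasome genes at that level, of which 4 were 2-fold or more higher and 1 lower. Of the NAIP genes, whose products pass bacterial ligands to NLRC4, Naip1 was 2.03-fold higher (1.498 to 2.75), Naip2 1.94-fold (1.66 to 2.27), Naip5 1.65-fold (1.46 to 1.86) and Naip6 1.56-fold (1.41 to 1.74) in the P2X1-KO-labelled library. Between 19.1% and 36.8% of their 50-base windows occur in another gene, so the values of single NAIP genes are uncertain. Mefv, which encodes the sensor pyrin, had 100 and 58.5 CPM and was 1.71-fold lower (1.55 to 1.89). Of the 6 other sensor and NAIP genes counted, 1 was at least 2-fold higher and 0 lower, with a median log2 difference of 0.68.

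The relatives of Aim2 that were detected at this level stood higher in the P2X1-KO-labelled library, whereas Aim2 stood lower. Of 7 other PYHIN genes in the table, which encode DNA-binding proteins of the interferon response, 3 averaged no less than 1 CPM and all 3 were at least 2-fold higher, with a median log2 difference of 2.45. Mndal had 38 and 183 counts, or 2.44 and 20.6 CPM, and was 8.45-fold higher (5.93 to 12.3). Pyhin1 had 70 and 238 counts, or 4.49 and 26.8 CPM, and was 5.97-fold higher (4.55 to 7.91). Ifi203, named after its values were seen, had 5 and 33 counts, an 11.6-fold difference (4.49 to 38.0). Of the 50-base windows of Mndal, 19.6% occur in other genes, among them Ifi203, so these values are uncertain.

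Genes for factors that license or restrain NLRP3 or NLRP1B, listed together with ion flux genes, were spread on both sides of no change. Of 12 measured, 2 were higher and 2 lower by 2-fold or more, and 8 lay within 2-fold, with a median of 0.06. P2rx7, the ATP-gated channel upstream of NLRP3, had 27.3 and 11.7 CPM and was 2.33-fold lower (1.87 to 2.91) in the P2X1-KO-labelled library, opposite to Nlrp3. Dpp8, a protease that restrains NLRP1B, was 2.04-fold lower (1.86 to 2.25). Ptpn22, a phosphatase gene, was 3.83-fold higher (3.04 to 4.84), and Sugt1, a partner of the chaperone HSP90, 2.34-fold higher (2.12 to 2.57). Nek7, the kinase that binds NLRP3, was named after its values were seen and had 33.4 and 49.5 CPM, a 1.48-fold difference (1.30 to 1.69).

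Of 8 other caspase, gasdermin and membrane rupture genes, 1 was at least 2-fold higher and 0 lower (median 0.15). Dfna5, the older symbol of the gene for gasdermin E, had 18 and 55 counts and was 5.36-fold higher (3.10 to 9.71). Ninj1, which encodes the protein that ruptures the membrane after pore formation, was 1.94-fold higher (1.78 to 2.11). Casp2, the gene of a caspase outside the inflammasome, was 1.40-fold lower (1.25 to 1.56), in the direction opposite to Casp1 and Casp4. Among 4 genes for neutrophil serine proteases, which can also cleave IL-1 family cytokines, and their inhibitor, 1 was at least 2-fold higher. This was the inhibitor gene Serpinb1a at 3.94-fold (3.77 to 4.12), while Prtn3, encoding proteinase 3, was 1.90-fold higher (1.86 to 1.95).

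Upstream and downstream of the cytokines, genes of priming receptors lay at or above no change and those of IL-1 family receptors on both sides of it. Of 11 such priming genes, 5 were at least 2-fold higher and 0 lower (median 0.52). Ly96, which encodes the partner of TLR4 in lipopolysaccharide binding, was 8.34-fold higher (4.82 to 15.3) and Cd14 4.18-fold higher (3.67 to 4.77). Tlr4 itself, named after its values were seen, had 8.02 and 7.99 CPM, a ratio of 0.997 (0.734 to 1.34). Of 21 genes of MYD88 and NF-kB signalling, 4 were at least 2-fold higher, 1 lower and 16 within 2-fold (median 0.03). Irak3, which encodes an inhibitory kinase of this pathway, was 5.26-fold higher (4.46 to 6.21) and Relb, an NF-kB subunit gene, 3.87-fold higher (2.82 to 5.35). Traf6 and Tab1, also genes of this pathway, were 2.23-fold (1.97 to 2.54) and 1.99-fold (1.79 to 2.22) lower.

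Of 6 genes for IL-1 and IL-18 receptors, 2 stood higher and 2 lower by 2-fold or more, with a median of -0.53. Il18rap, which encodes a subunit of the IL-18 receptor, had 108 and 37.5 CPM and was 2.88-fold lower (2.56 to 3.25). Il18 stood higher, with a lower bound of 3.93-fold, but this rests on 0 and 10 counts. Il1rl2, the receptor gene for IL-36, was 3.32-fold lower (2.31 to 4.90). Sigirr, which encodes an inhibitory receptor of the family, was 2.46-fold higher (2.16 to 2.81), and Il1r1 had 8 and 15 counts, a ratio of 3.29 (1.31 to 8.96). Of the other ligands and soluble antagonists, 2 averaged no less than 1 CPM, Il1rn and Il18bp, and both intervals held 1. Il1a had 0 counts in both libraries.

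Guanylate-binding proteins are interferon-inducible and expose bacteria to AIM2 and caspase-11. Of their genes, Gbp3 had 52.0 and 10.02 CPM and was 5.18-fold lower (4.16 to 6.53), and Gbp7 was 2.91-fold lower (2.02 to 4.31). Irf8, the gene of a myeloid transcription factor, went the other way with 25.9 and 170 CPM, a 6.58-fold difference (5.89 to 7.36). Of the 7 genes of this list counted, 1 was at least 2-fold higher and 2 lower (median -0.21). The plot of log2 differences by list sets these beside the 10 genes.

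**Figure D4:**
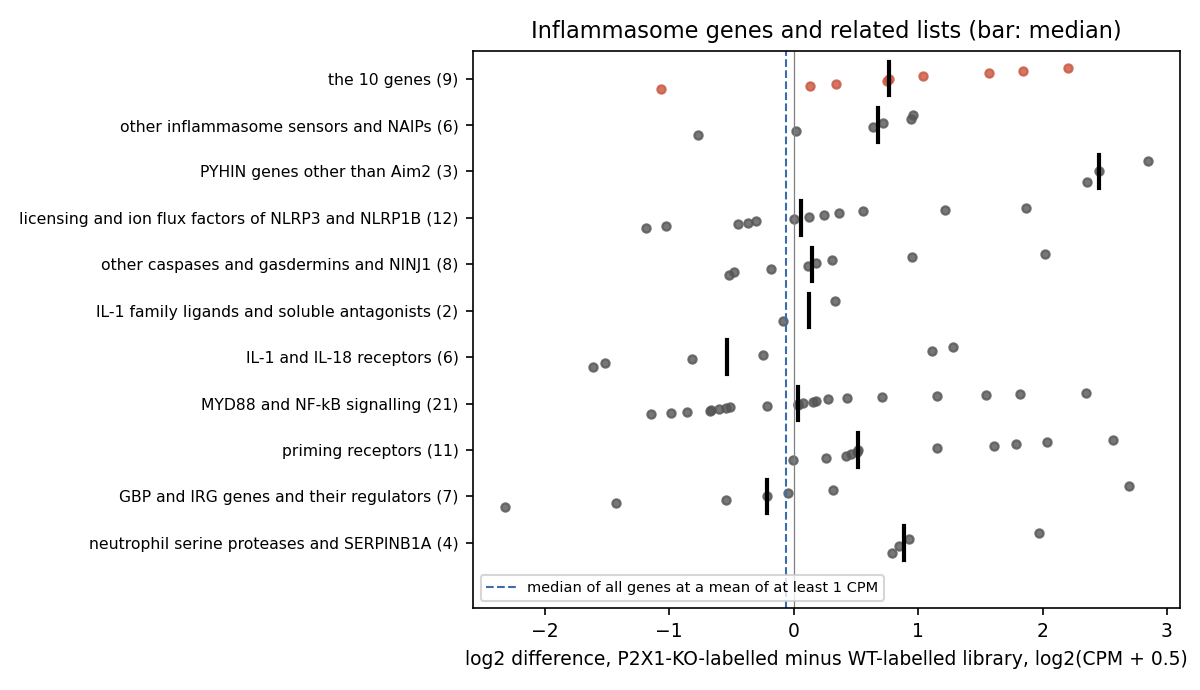
Log2 difference of each gene averaging no less than 1 CPM (number in brackets), on the log2(CPM + 0.5) scale, with the 10 inflammasome genes in red (9 at that level) and the related lists in grey. Bars are medians and the dashed line is the median of all 13382 genes at that level, -0.06. The receptor and GBP lists have medians of -0.53 and -0.21, below that line.

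Which of these ratios pass 2-fold depends in part on the scaling. Nlrp3, Il1b and Il18 were at least 2-fold higher under each scaling tried and the length and GC correction. The lowest values were 3.02, 2.49 and 3.56 (the last against the floor) when both libraries were set to equal Itgam counts. The interval of Il1b on that scale, 1.69 to 3.72, spanned 2-fold. Gsdmd was 1.81-fold and Pycard 1.25-fold higher on that scale, and Casp1 and Casp4 were at 1.04. Aim2 was 3.46-fold lower on it. Genes of the related lists that were less than 1.65-fold higher with TMM, such as Naip6 and Nek7, would lie below 1 on that scale.

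**Figure D5:**
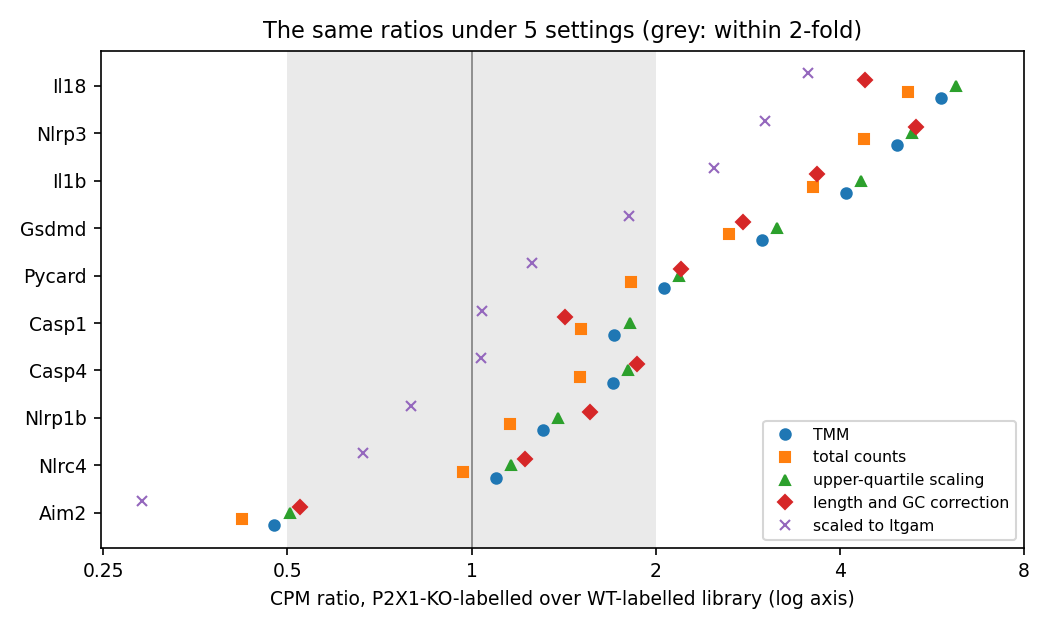
CPM ratio of each gene on a log axis under 5 settings (TMM, total counts, upper quartile, length and GC correction, and equal Itgam counts). Each setting other than the length and GC correction moves all genes by 1 common factor. Nlrp3, Il1b and Il18 stay right of the grey 2-fold range, whereas Nlrc4 and Nlrp1b lie on both sides of 1.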

How the data were processed

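RNA sequencing gave 1 library for each group. What the authors deposited is a table of raw counts, whole numbers per symbol without normalization. HISAT2 2.0.4 and the mm10 build are named in the submitters' processing notes. For the counting tool, annotation and strand setting, nothing is stated in the labels. CPM was computed from TMM effective library sizes (edgeR 4.0.16, R 4.3.3), 15591519 for WT and 8882591 for P2X1-KO. A fold is a ratio of CPM without pseudocount, with an exact Clopper-Pearson 95% interval given the summed counts, and the quotient of 2 count ratios has the exact conditional interval of an odds ratio (scipy 1.17.1). A count of 0 was set to a floor of 3 counts per library. Log2 differences are of log2(CPM + 0.5), P2X1-KO minus WT. PCR copies are not independent molecules, so intervals and floors describe counting error alone. The interval code was tested on simulated data.

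Coordinates and lengths came from GENCODE M21, on the same assembly. Of the 10483 genes averaging no less than 5 CPM, 10239 (97.7%) had a known length and GC content, and the correction subtracted medians in 20 bins of each. The 10 genes and the lists were chosen with earlier results of these data known. From the related lists, up to 2 genes in each direction were named among those averaging no less than 1 CPM. They were those whose interval bound nearer to 1 lay farthest from 1, so their own values picked them. From marker lists the 3 most abundant were named. Some genes that this rule names are not reported here. No gene was named for a similar pattern, since over 2 libraries a pattern is a single ratio. Alternatives were total counts, upper-quartile and DESeq2 1.42.0 scaling, TMM without the 20 most abundant genes, the length and GC correction, other thresholds and pseudocounts and, added after seeing the data, equal Itgam counts.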

Additional observations from a re-analysis of the deposited data

How the results depend on the processing

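No paired analysis was possible because each group has 1 library. For the same reason no library could be left out. In 31 of 41 recomputed values, a count stayed within 1.5 times or the median log2 difference stayed between the medians of the lower and upper interval bounds of the genes. Total counts gave a median log2 difference of 0.72 and 1 gene lower with its whole interval beyond 2-fold. Upper-quartile scaling and the length and GC correction each left 0 genes at least 2-fold lower, beside 5 higher. Equal Itgam counts gave 3 genes at least 2-fold higher, 2 higher and 1 lower with the whole interval beyond 2-fold, and a median of 0.19. At 3-fold, 3 genes were higher and 0 lower. The sign of Nlrc4 turned with total counts (log2 difference -0.047) and equal Itgam counts (-0.58), and that of Nlrp1b with the latter (-0.29). Of the genes at least 2-fold apart averaging no less than 5 CPM, 53.4% were higher with TMM, 38.7% with total counts and 11.4% with equal Itgam counts. Total counts shifted the median of all genes by -0.18 and equal Itgam counts by -0.72 on the log2 scale. Depth limits Il18 and Nlrp1b most. The log2 difference of Il18 was 3.62 with a pseudocount of 0.1 CPM and 1.09 with a pseudocount of 1 CPM.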

Other observations

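The genes next to the inflammasome genes on the chromosomes were read as well. Within 250 kb of the 10 genes lay 70 other protein-coding genes averaging no less than 1 CPM, of which 5 were at least 2-fold higher in the P2X1-KO-labelled library and 11 at least 2-fold lower. Of all genes at that level, 15.5% were higher and 14% lower by this factor. Among 7 such neighbours of Nlrp3, 0 were at least 2-fold higher and 2 lower, while Nlrp3 itself was 4.96-fold higher. Among 14 neighbours of Gsdmd, 0 were higher and 1 was lower. The genes named here were chosen after their values were seen. Dhx33, which encodes an RNA helicase linked to NLRP3 activation, lies 149 kb from Nlrp1b and was 2.02-fold lower (1.54 to 2.68). Among 20 neighbours of Pycard, 2 were at least 2-fold higher and 3 lower. Itgam lies 68.8 kb from Pycard, and Itgax, an integrin gene of dendritic cells and macrophages, lies 136 kb from it and was 2.93-fold higher (2.24 to 3.86). Itgad, another integrin gene, lies 161 kb from Pycard and went the other way. It had 61 and 2 counts and was 17.4-fold lower (4.61 to 147). Pyhin1, 165 kb from Aim2, was the 1 neighbour of Aim2 at this level, and it differed from Aim2 in direction.

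Markers of T and NK cells were nearly absent. Of 10 T and NK cell markers, 8 had 0 counts in both libraries, and their summed level was 0.128 CPM in the WT-labelled and 0.901 CPM in the P2X1-KO-labelled library. Of 8 B cell markers, 3 (Ms4a1, Pax5 and Ebf1) had 0 counts in both, although Cd79b had 14.7 and 47.4 CPM. Of the 4 averaging no less than 1 CPM, 2 were at least 2-fold higher and 2 within 2-fold, among the latter Ighm with 10.1 and 7.66 CPM. Summed dendritic cell markers were 86.6 and 92.7 CPM, with Flt3 at 72.0 and 47.4 CPM and Cd74 at 5.64 and 25.6 CPM. Of the 4 averaging no less than 1 CPM, 2 were at least 2-fold higher and 1 lower. The lower one was H2-Ab1, with 44 and 3 counts. Summed stromal markers were 108 and 293 CPM, and Col1a1 alone had 0.962 and 149 CPM. Pdgfrb, which made up most of the first sum, went the other way with 93.1 and 47.1 CPM, 1.98-fold lower (1.77 to 2.21), and Cxcl12 had 14 and 0 counts. Summed eosinophil, basophil and mast cell markers were 36.1 and 172 CPM, with Prg2 at 0.513 and 129 CPM. Mcpt8, which made up most of the first sum, was 1.48-fold lower (1.26 to 1.75) with 34.0 and 23.0 CPM, and Ear6 had 19 and 0 counts. Summed erythroid and megakaryocyte markers were 3.40 and 5.97 CPM. The part of these cells in the values of the inflammasome genes was not tested.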
